A study of Mus musculus with 6 samples.

Results

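The small leucine-rich proteoglycans (SLRPs) of the extracellular matrix are described here by 10 genes, Dcn, Bgn, Aspn, Lum, Fmod, Prelp, Kera, Ogn, Chad and Podn, all 10 of which were found among the 13226 genes of the count table. The members were picked by name from a list drawn up with earlier results of these counts known, so their levels and fold changes are given as a description. RNA was sequenced from whole tibialis anterior (TA) muscles of male C57BL/6 mice aged 8 weeks, 7 days after injection of an adeno-associated viral vector of serotype 6. One group of 3 muscles received AAV6:Yap-shRNA, a vector carrying a short hairpin RNA against Yap, and the other group of 3 received a control vector, with the opposite TA muscles of the same animals serving as the pair. The control is called an empty vector in the sample titles and a lacZ shRNA vector in the other labels, and it is called control below. The vectors were built on plasmids with the CMV promoter, which is not restricted to muscle fibres. Every muscle was sampled whole, so a lower level can mean fewer cells of one type or less RNA in each cell, and these cannot be told apart.

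SLRPs are secreted proteins with a core of leucine-rich repeats, and many carry chains of chondroitin, dermatan or keratan sulfate. They bind fibrillar collagens and set how collagen fibrils assemble and how thick they become, and some, decorin among them, also bind growth factors such as TGF-beta. In skeletal muscle they are made mainly by fibroblasts of the connective tissue between fibres and by cells of the tendon, and fibromodulin and chondroadherin are best known from tendon and cartilage. Yap is a coactivator of transcription that works through the TEAD family of DNA-binding proteins.

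The question put to these data was how each SLRP varied over the 6 muscles and whether Yap-shRNA muscles differed from control muscles. The groups overlapped for all of the 10 members, and none passed an adjusted p of 0.05 in edgeR's quasi-likelihood test. No gene of the table passed it, not even Yap1, the target of the hairpin. This outcome therefore does not show that the members were unchanged. The spread over the muscles was uneven. Control 1 and Yap-shRNA 3, which belong to opposite groups, held the highest levels of 9 of the 10 members. The lower of these muscles exceeded the other 4 by 11.1 times for Chad and 5.42 times for Fmod, but by only 1.05 times for Dcn, and for Podn it did not exceed them.

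Before the values, the sequence before the start of the genes that the results turn on is shown, since Yap acts through TEAD proteins that bind the letters CATTCC. RefSeq promoters on GRCm38.p6 were at hand for 8 of the 10 members, in 9 windows of 250 bases, 2 of them for Podn. The members without an entry were Dcn and Lum. The starts are those of RefSeq and differ for some members from the GENCODE gene positions given below. The Ogn window ends at 49608014, and the GENCODE gene begins at 49608046. The Kera window (chr10:97606955-97607204) lies inside the GENCODE gene, and so do the 2 Podn windows (chr4:108031955-108032204 and chr4:108030987-108031236). The Prelp window (chr1:133921402-133921651) partly overlaps its GENCODE gene. Chad and Fmod are shown because they varied most between muscles, and Ogn because it was the member whose window held a CATTCC. The Fmod window is chr1:134037004-134037253 (plus strand), the Chad window chr11:94564797-94565046 (plus strand) and the Ogn window chr13:49607765-49608014 (plus strand). Each sequence reads from 5′ to 3′ up to the base before the start, and capitals mark CATTCC or the TATA box letters TATAAA on either strand.
Fmod: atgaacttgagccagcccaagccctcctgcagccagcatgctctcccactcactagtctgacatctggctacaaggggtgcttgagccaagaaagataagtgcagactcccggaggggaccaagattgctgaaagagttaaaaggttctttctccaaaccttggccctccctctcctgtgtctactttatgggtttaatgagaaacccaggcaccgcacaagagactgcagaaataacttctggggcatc
Chad: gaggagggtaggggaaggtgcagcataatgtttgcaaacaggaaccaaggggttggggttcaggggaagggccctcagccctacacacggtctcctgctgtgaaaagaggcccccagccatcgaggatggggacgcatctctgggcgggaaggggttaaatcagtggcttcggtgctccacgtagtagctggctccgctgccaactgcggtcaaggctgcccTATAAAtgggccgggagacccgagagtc
Ogn: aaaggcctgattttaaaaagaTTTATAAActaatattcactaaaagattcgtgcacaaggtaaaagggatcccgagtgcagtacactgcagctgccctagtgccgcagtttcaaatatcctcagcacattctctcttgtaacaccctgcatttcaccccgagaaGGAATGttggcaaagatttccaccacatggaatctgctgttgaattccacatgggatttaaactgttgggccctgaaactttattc
The Chad window held TATAAA from 28 bases before the start, and the Fmod window held neither motif. In Ogn, CATTCC stood on the opposite strand (read as GGAATG) from 86 bases before the start, and TATAAA occurred on both strands in overlapping letters from 229 and 227 bases before it. Across all 9 windows, 1 held CATTCC and 3 held TATAAA, those of Chad, Aspn and Ogn. For comparison, 12.6% of 32851 RefSeq windows of this length held CATTCC and 12.4% held TATAAA. A match of these letters is not evidence of binding, and the lack of one says only that these letters were not in the window.

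Several SLRP genes lie side by side in the genome (GRCm38, GENCODE M21). On chromosome 10, Dcn (chr10:97479609-97518143), Lum (chr10:97565128-97572703) and Kera (chr10:97606879-97613692) stand on the plus strand with gaps of 46984 and 34175 bases. On chromosome 13, Aspn (chr13:49544443-49567565) and Ogn (chr13:49608046-49624501) are on the plus strand and form a run with the related genes Ecm2 and Omd, with gaps of 11653, 14896 and 15223 bases. On chromosome 1, Prelp (chr1:133910304-133921414, minus strand) and Fmod (chr1:134037254-134048277, plus strand) are 115839 bases apart. None of these gaps holds another protein-coding gene. Bgn (chrX:73483602-73495933, plus strand), Chad (chr11:94565047-94569127, plus strand) and Podn (chr4:108014791-108096445, minus strand) stand apart from other members. Exons of Aspn overlap those of Cenpp on the other strand by 7 bases and exons of Prelp overlap the antisense gene Gm15851 by 350 bases. Whether reads were counted by strand is not given in the sources used here, so these counts could include reads of the overlapping gene.

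The libraries held 11987167 to 12710393 counts. The target of the hairpin, Yap1, had 915, 781 and 833 counts in the control libraries, while the Yap-shRNA libraries had 381, 311 and 495 (log2 fold change -1.10, standard error 0.16). In edgeR's quasi-likelihood test over all genes Yap1 had an unadjusted p of 6.9e-05 and an adjusted p of 0.436. Its adjusted p was 5.8e-07 in DESeq2 and 2.2e-06 in the likelihood ratio test of edgeR. The groups did not overlap for Yap1, so a gene that fails the quasi-likelihood threshold can still have changed. Levels are given as CPM, counts scaled to library size with the TMM method. All 10 markers of muscle fibres, the main cells of the labelled tissue, were present and summed to 152949 to 181916 CPM. Control 1 and Yap-shRNA 3 stood apart from the rest of their groups in tendon cell markers and collagens. The 9 of 10 tendon cell markers with counts summed to 424 CPM in control 1 and 326 in Yap-shRNA 3, and to 111 to 148 in the other 4 muscles. For this reason fold changes of the members, and of some other genes, are given with and without these 2 muscles, a choice made after seeing the data. No label says which muscles came from one animal, so the pairing within animals could not be used. The main test treated the muscles as independent, and differences between animals and between muscles are mixed in the spread it used.

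**Figure D1:**
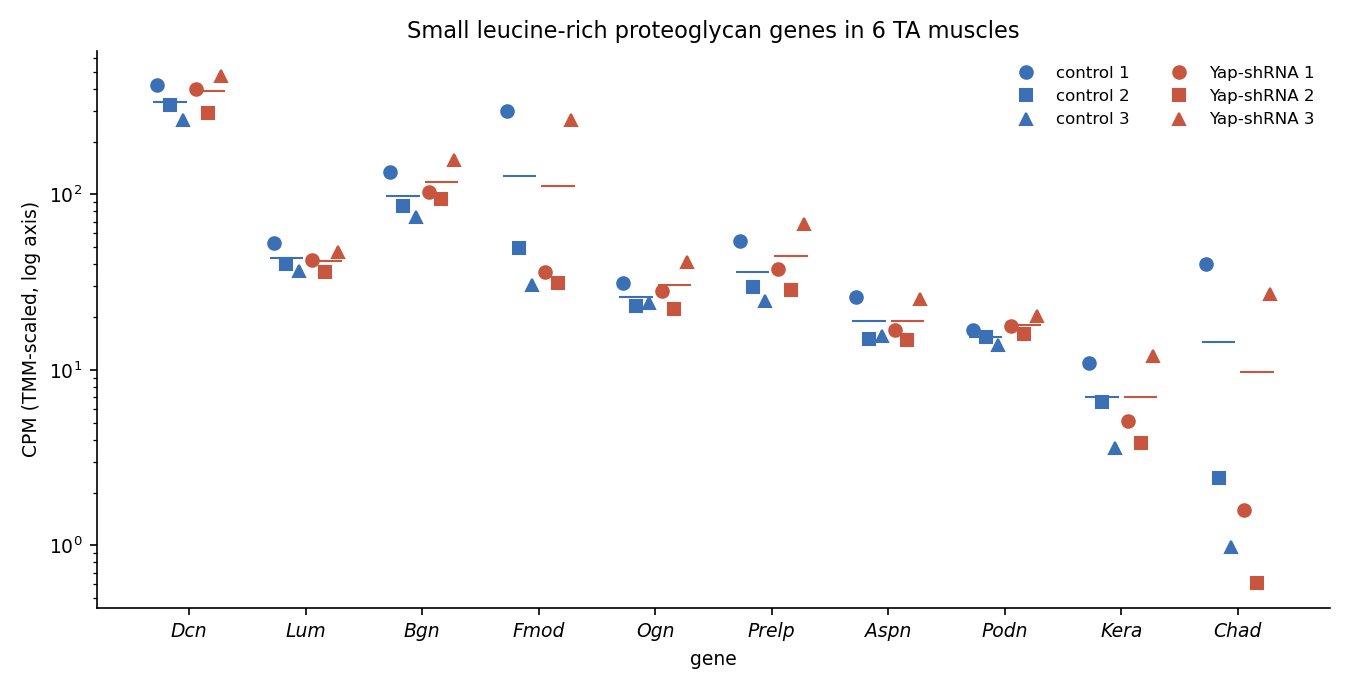
Level of each SLRP gene in each of the 6 muscles, in CPM scaled by TMM on a log axis, ordered from left to right by median CPM per kb of exon. Control muscles are blue and Yap-shRNA muscles red, and lines mark group means. Control 1 (blue circle) and Yap-shRNA 3 (red triangle) lie far above the rest for Fmod and Chad and little or not above them for Lum and Podn.

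Between genes, levels are compared as CPM per kb of exon. Decorin (Dcn), a dermatan or chondroitin sulfate proteoglycan that binds collagen and TGF-beta, had the highest median level, 61.9 CPM per kb over the 6 muscles, with values from 45.4 to 80.9. Lumican (Lum, 16.8), biglycan (Bgn, 16.1), fibromodulin (Fmod, 12.9), osteoglycin (Ogn, 10.2), Prelp (9.33) and asporin (Aspn, 6.88) followed in median CPM per kb. Podocan (Podn, 3.86), keratocan (Kera, 2.55) and chondroadherin (Chad, 1.20) had the lowest medians on that scale. Between neighbours in this order, the ranges over the 6 muscles were separate for Dcn against Lum and for Aspn against Podn, and all other neighbouring ranges overlapped. Per kb of coding sequence Bgn came before Lum and Prelp before Ogn, while Dcn stayed first and Chad last.

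The order did not hold in every muscle. Fmod reached 90.6 CPM per kb of exon in control 1, above the 71.9 of Dcn in that muscle, and 80.7 in Yap-shRNA 3, where Dcn was at 80.9. Per kb of coding sequence Dcn stayed above Fmod in control 1, with 39.6% of the summed level of the 10 members against 26.6%. In the other 4 muscles Fmod was between 9.26 and 14.9 CPM per kb of exon. Chad reached 23.8 and 16.1 CPM per kb in control 1 and Yap-shRNA 3, above Lum in control 1, and was at 0.366 to 1.44 in the others. Fmod thus made up 32.7 and 29.0% of the summed level per kb of exon of the 10 members in control 1 and Yap-shRNA 3, against 7.30 to 11.2% elsewhere. Chad made up 8.58 and 5.79% in the same muscles, against 0.310 to 1.09%. The share of Dcn was correspondingly 25.9 and 29.1% in these muscles and 41.4 to 45.8% in the others. Per kb of coding sequence these shares in control 1 and Yap-shRNA 3 were 26.6 and 22.7% for Fmod, 3.73 and 2.41% for Chad and 39.6 and 42.6% for Dcn. In the other 4 muscles they were 5.01 to 7.96% for Fmod, 0.115 to 0.412% for Chad and 55.1 to 59.0% for Dcn, so the levels of the shares depend on the length used and the contrast between the muscles had the same direction.

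**Figure D2:**
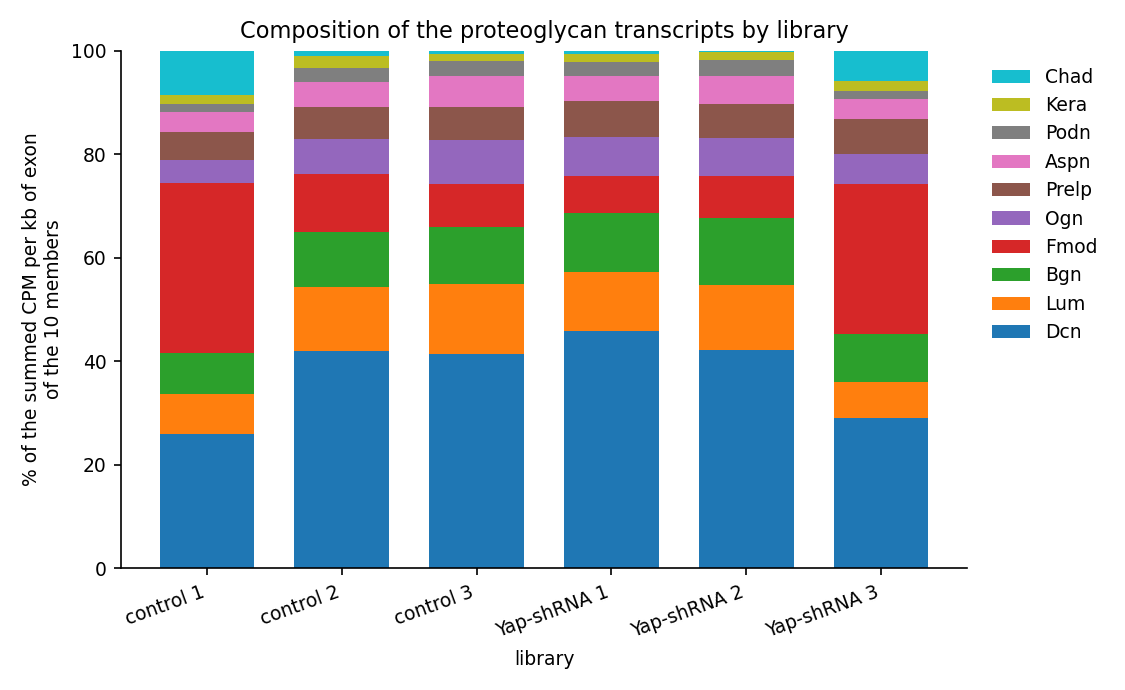
Share of each gene in the summed CPM per kb of exon of the 10 SLRP genes, in % on the vertical axis, for each of the 6 muscles on the horizontal axis. In control 1 and Yap-shRNA 3 the Fmod segment takes 32.7 and 29.0%, and in the other 4 muscles the Dcn segment takes over 41%.

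The class I SLRPs are Dcn, Bgn and Aspn. Dcn was at 420, 324 and 265 CPM in control muscles and at 398, 291 and 472 CPM in Yap-shRNA muscles. The groups overlapped, with means of 336 ± 77.9 and 387 ± 90.8 CPM (SD, n = 3 each), and control 1, Yap-shRNA 1 and Yap-shRNA 3 were the highest muscles. The log2 fold change of Dcn, Yap-shRNA over control, was 0.20, with a 95% interval from -0.25 to 0.66. Bgn, the closest relative of decorin, also carries chondroitin or dermatan sulfate. Its levels were 135, 85.4 and 73.9 CPM in control muscles and 103, 93.6 and 158 CPM in Yap-shRNA muscles, where Yap-shRNA 3 and control 1 were again the highest. The log2 fold change of Bgn was 0.27 (95% interval -0.29 to 0.83). Aspn, which has a run of aspartate residues and competes with decorin for collagen, was at 26.2, 15.0 and 15.5 CPM in control muscles and at 16.9, 14.7 and 25.3 CPM in Yap-shRNA muscles. The group means of Aspn were nearly equal, at 18.9 and 19.0 CPM, with a log2 fold change of 0.0020 (95% interval -0.57 to 0.58).

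The class II SLRPs are Lum, Fmod, Prelp and Kera. Fmod, which binds collagen I at a site it shares with lumican and is abundant in tendon, was at 300 CPM in control 1, 49.2 in control 2 and 30.6 in control 3. In Yap-shRNA muscles it was at 36.0, 31.4 and 267 CPM. The one high muscle in each group left the means at 126 ± 150 and 111 ± 135 CPM (SD, n = 3 each), and the log2 fold change of -0.18 had a 95% interval from -2.33 to 1.96. Without control 1 and Yap-shRNA 3 it was -0.24 (95% interval -0.71 to 0.22).

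Lum, which carries keratan sulfate in the cornea and is made widely by fibroblasts, was at 52.8, 40.3 and 36.4 CPM in control muscles and at 42.0, 35.9 and 46.8 CPM in Yap-shRNA muscles. Together with Podn it varied least, with the highest muscle 1.47 times the lowest, and its log2 fold change was -0.055 (95% interval -0.40 to 0.29). Prelp, which lacks such chains and links collagen to heparan sulfate, was at 54.3, 29.8 and 24.8 CPM in control muscles and at 37.7, 28.6 and 67.5 CPM in Yap-shRNA muscles. Its log2 fold change was the highest of the members, 0.29 (95% interval -0.49 to 1.08), and the groups overlapped. Kera, a keratan sulfate proteoglycan best known from the cornea, had few counts, with 141, 78 and 44 in the control libraries and 61, 50 and 150 in those of Yap-shRNA. That gave 11.0, 6.52 and 3.61 CPM against 5.12, 3.84 and 12.0 CPM, a log2 fold change of -0.017 (95% interval -1.07 to 1.04).

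Ogn is the class III member in these data, and Chad and Podn stand for classes IV and V. Ogn, also called mimecan, was at 31.1, 23.0 and 24.0 CPM in control muscles and at 28.3, 22.1 and 40.9 CPM in Yap-shRNA muscles (log2 fold change 0.22, 95% interval -0.26 to 0.71). Chad, a cartilage and tendon protein that binds collagen and integrins and carries no such chains, gave 513, 29 and 12 counts in the control libraries and 19, 8 and 339 in those of Yap-shRNA. This was 39.9, 2.42 and 0.985 CPM against 1.59, 0.614 and 27.0 CPM. Control 1 was thus 16.5 and 40.6 times the other control muscles, and Yap-shRNA 3 was 17.0 and 44.0 times the other Yap-shRNA muscles. The log2 fold change of Chad, -0.58, had the widest interval of the members, from -3.56 to 2.41, and without both muscles it was -0.64 (95% interval -1.91 to 0.64). Podn, which binds collagen and is known to slow smooth muscle cell growth, was at 17.0, 15.5 and 13.8 CPM in control muscles and at 17.8, 16.0 and 20.3 CPM in Yap-shRNA muscles. It was the member in which control 1 was not among the highest 2 muscles, since Yap-shRNA 3 and Yap-shRNA 1 lay above it, and its log2 fold change was 0.23 (95% interval -0.080 to 0.53).

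Over the 10 members, 6 had a log2 fold change above 0, against 48.9% of all genes, and their median was 0.10 against -0.0029 over all genes. The range of the 3 Yap-shRNA muscles overlapped that of the 3 control muscles for all 10 members, whereas 5.27% of all genes had groups that did not overlap. By edgeR's quasi-likelihood test, 0 of 10 members and 0% of all 13226 genes passed an adjusted p of 0.05. At an unadjusted p of 0.05 the counts were 0 of 10 members and 232 genes (1.75%). DESeq2 and the likelihood ratio test of edgeR each called 5 genes and limma-voom called 0, and none of these calls was a member. Chad had no p-value in DESeq2. Without control 1 and Yap-shRNA 3, the log2 fold changes of the members ran from -0.64 (Chad) to 0.30 (Bgn) with a median of 0.074. Bgn was the only member under an unadjusted p of 0.05 in that fit, with an interval from 0.025 to 0.58, as were 5.56% of all genes, with an adjusted p of 0.881 for Bgn in the quasi-likelihood test of edgeR.

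**Figure D3:**
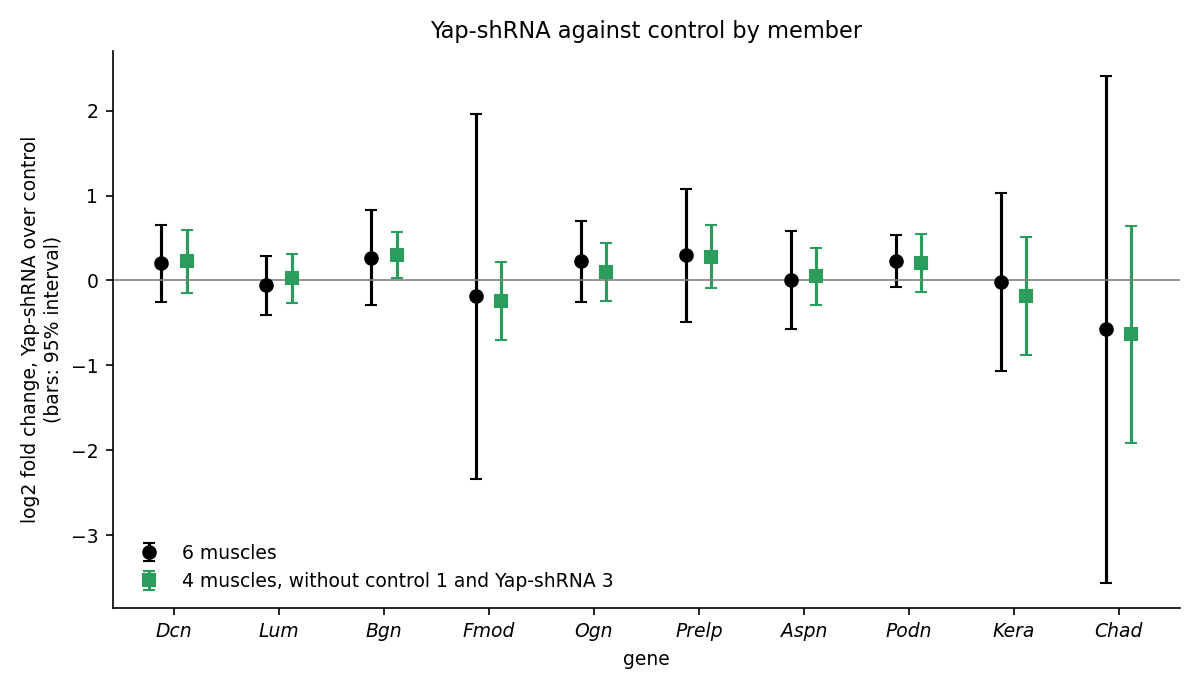
Log2 fold change of each SLRP gene, Yap-shRNA over control, on the vertical axis, with 95% intervals as bars. Black circles are all 6 muscles and green squares are the 4 muscles without control 1 and Yap-shRNA 3. The intervals of Fmod and Chad span more than 4 log2 units with all muscles and are narrower in the 4, and the interval of Bgn lies just above 0 only in the 4.

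Where the members differed was in how far control 1 and Yap-shRNA 3 stood above the other 4 muscles. These were the highest 2 muscles for 9 of 10 members, against 11.3% of all genes. The lower of them exceeded the highest of the other 4 by 11.1 times for Chad, 5.42 times for Fmod and 1.68 times for Kera. For Aspn, Prelp and Bgn it did so by 1.50, 1.44 and 1.31 times, and for Lum, Ogn and Dcn by 1.11, 1.10 and 1.05 times. Of the 10 members, 5 (Chad, Fmod, Kera, Prelp and Bgn) differed by at least 2-fold between the highest and the lowest muscle, against 5.85% of the 9809 genes with a mean of at least 50 counts. Ratios as large as that of Chad (65.0) or Fmod (9.79) were reached by 16 and 32 of those genes. The ratios of Lum and Podn (1.48) were matched by 30.1% and 29.5% of them. Summed over the members the level was 1086, 592 and 489 CPM in control muscles and 686, 538 and 1136 CPM in Yap-shRNA muscles. Without Fmod and Chad the sums were 747, 540 and 457 CPM against 649, 506 and 842 CPM.

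**Figure D4:**
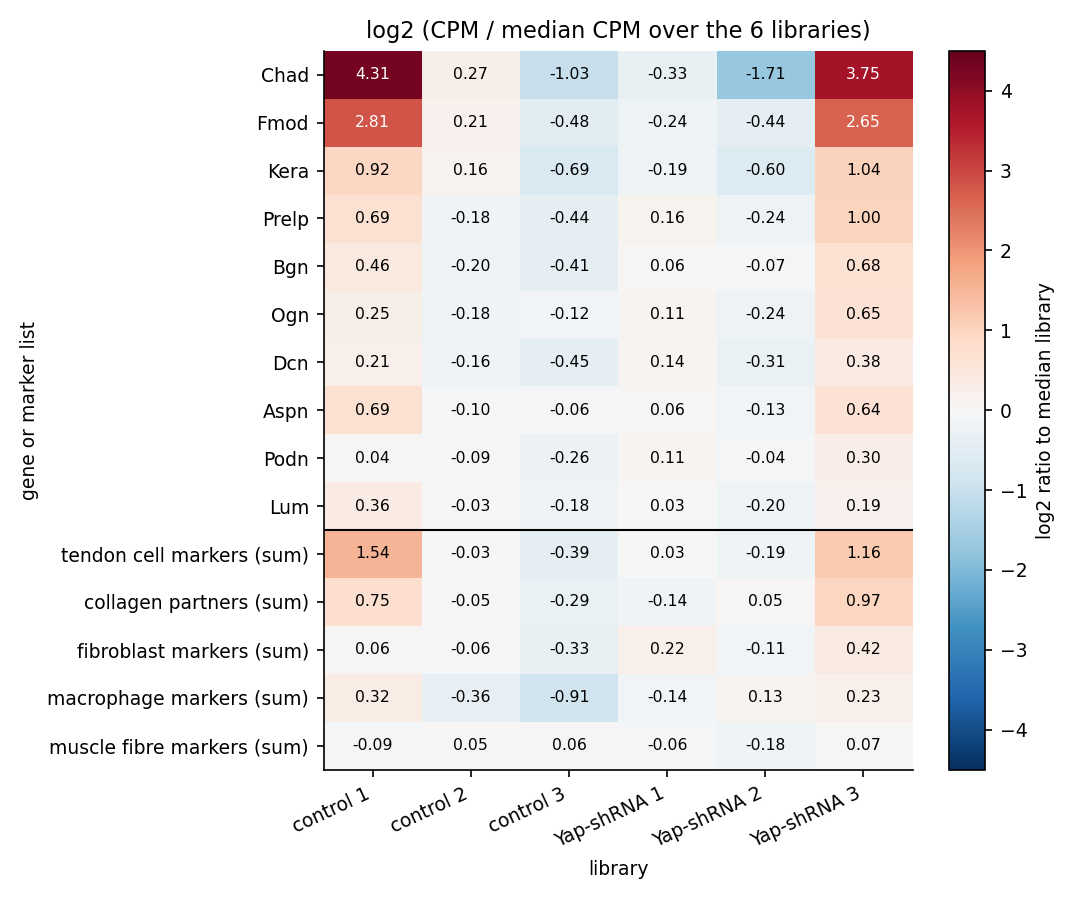
Log2 ratio of the CPM in each muscle (columns) to the median muscle, for each SLRP gene (upper rows, most variable first) and for the summed CPM of 5 marker lists (lower rows). The ratio in control 1 and Yap-shRNA 3 is 4.31 and 3.75 for Chad, 2.81 and 2.65 for Fmod and at most 1.04 for the other 8 genes. It is 1.54 and 1.16 for the tendon cell markers and is near 0 for muscle fibre markers.

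Markers of cells that make SLRPs moved unequally over the same muscles. All 9 tendon cell markers with counts were highest in control 1 and Yap-shRNA 3. Scx, the defining transcription factor of tendon cells, was at 4.75, 3.09 and 3.86 CPM in control muscles and at 2.68, 3.15 and 6.06 CPM in Yap-shRNA muscles. Tnmd, a membrane protein of mature tendon cells, was at 15.3, 3.93 and 3.04 CPM in control muscles and at 2.68, 2.38 and 16.8 CPM in Yap-shRNA muscles. Of these 9 markers 8 had a log2 fold change below 0 (median -0.15, from Angptl7 at -0.50 to Scx at 0.023). The 10 fibroblast markers summed to 1341, 1240 and 1024 CPM in control muscles and to 1507, 1196 and 1722 CPM in Yap-shRNA muscles, and 3 of the 10 were highest in both control 1 and Yap-shRNA 3. Their log2 fold changes were all above 0, with a median of 0.18, from Col15a1 at 0.025 to Pi16, which marks fibroblasts around vessels, at 0.70. Of cartilage and bone markers 4 of 10 had counts, and the defining cartilage genes Acan and Col2a1 were not among the genes analysed here. The 4 summed to 8.44 to 13.9 CPM in control and 8.64 to 12.6 CPM in Yap-shRNA muscles. Log2 fold changes ran from Col9a1 at -0.16 to Runx2 at 0.16. What part the amount of tendon or other connective tissue in a muscle had in the SLRP levels was not tested.

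The collagens that SLRPs bind had the same muscles on top. All 10 collagen partners with counts, of 11 listed, were highest in control 1 and Yap-shRNA 3, and their sums were 2673, 1530 and 1291 CPM in control muscles against 1436, 1638 and 3103 CPM in Yap-shRNA muscles. Col1a1, the main chain of fibrillar collagen I, was at 673, 296 and 259 CPM in control muscles and at 266, 325 and 826 CPM in Yap-shRNA muscles. Log2 fold changes of the 10 were above 0 in every case, from Col3a1 at 0.091 to Col12a1 at 0.46 with a median of 0.21, and none reached an unadjusted p of 0.05.

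The enzymes that build the sugar chains of SLRPs differed by list in how they varied over the muscles. The 7 linker enzymes, which attach or modify the first sugars on the core protein, summed to 123 to 135 CPM over the 6 muscles. Of these enzymes 0 were highest in both control 1 and Yap-shRNA 3. Their log2 fold changes ran from B3galt6 at -0.091 to Xylt1 at 0.12. Of the chondroitin and dermatan sulfate enzymes 14 of 16 had counts, and 7 of these were highest in control 1 and Yap-shRNA 3. Their sums were 108, 88.7 and 84.5 CPM in the control libraries, and the Yap-shRNA libraries gave 90.4, 89.6 and 110 CPM. Dse, the epimerase that turns chondroitin into dermatan sulfate, had the highest log2 fold change, 0.55 (standard error 0.40), on levels from 2.42 to 8.05 CPM, and the sulfotransferase Chst3 the lowest, -0.33 (standard error 0.39). The 4 of 7 keratan sulfate enzymes with counts summed to 51.3 to 59.2 CPM, with log2 fold changes from B4galt4 at -0.20 to Chst1 at 0.29. With all 6 muscles none of these enzymes reached an unadjusted p of 0.05. Without control 1 and Yap-shRNA 3, Dse had a log2 fold change of 0.63. Its unadjusted p in edgeR's quasi-likelihood test was then 0.041 and its adjusted p 0.881. In that fit 5.56% of all genes had an unadjusted p under 0.05.

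Among 15 growth factors and receptors with counts that SLRPs are known to bind, 11 had a log2 fold change above 0, with a median of 0.093, from Tlr2 at -0.15 to Tlr4, a receptor for biglycan and decorin, at 0.52. Tgfb1, a ligand of decorin, was at 9.26, 9.45 and 9.93 CPM in control muscles and at 9.40, 10.4 and 13.3 CPM in Yap-shRNA muscles (log2 fold change 0.21, standard error 0.16). Of 12 listed genes, proteases that cut SLRPs and the protease enhancer Pcolce, 8 had counts, and 7 of these had a log2 fold change above 0. Mmp3, a matrix metalloproteinase, was at 1.17, 0.752 and 0.574 CPM in control muscles and at 1.68, 1.61 and 3.91 CPM in Yap-shRNA muscles. The groups did not overlap for Mmp3, on only 7 to 49 counts a muscle, and the log2 fold change of 1.51 (standard error 0.45) did not pass the test, with edgeR giving an adjusted p of 1.00. The lowest log2 fold change of the list was that of Bmp1, which trims the propeptide of biglycan, at -0.033.

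Of 7 further SLRPs and related genes 3 had counts, Ecm2, Omd and Tsku. Ecm2, the neighbour of Aspn, was at 22.1, 20.5 and 17.5 CPM in control muscles and at 19.4, 17.7 and 20.5 CPM in Yap-shRNA muscles (log2 fold change -0.061, standard error 0.12). Omd, or osteomodulin, had 8 to 18 counts a muscle and a log2 fold change of -0.29 (standard error 0.38), and Tsku, a secreted signalling modulator, had 13 to 30 counts and -0.024 (standard error 0.35). Epyc, Optc, Nyx and Podnl1 were not analysed here.

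The genes most like the SLRPs over the muscles were ranked by Pearson's r of log2 CPM over the 6 libraries, among genes with a mean of at least 50 counts. The libraries fall into the 2 high muscles and the rest, so r mainly records that contrast and is given as a description. Most like the mean of the members were Pamr1 (0.992), Mmp2 (0.988), Mfap5 (0.988), Boc (0.987), Serpinf1 (0.986), Sulf1 (0.985), Marcks (0.985) and Cald1 (0.985). By Spearman's rank correlation 21 genes were tied at 1, so ranks over 6 libraries do not single out 8 genes. For Chad the most similar genes were Cilp2 (0.999), Ctsk (0.998) and Engase (0.991), and for Fmod they were Ctsk (0.997), Angptl7 (0.997) and Cilp2 (0.994). For Prelp they were Mfap5 (0.992), Pamr1 (0.991) and Anxa5 (0.986), and for Bgn they were Zeb2 (0.995), Anxa5 (0.991) and Ddr2 (0.988). Dcn was most like Fbln1 (0.986), Hoxa11 (0.984) and Scara5 (0.984), and Lum most like Nov (0.984), Rnd3 (0.982) and Postn (0.978). The genes nearest to Aspn were Slc44a1 (0.998), Cyp20a1 (0.993) and Slc4a3 (0.992), those nearest to Ogn were Zfp385a (0.984), Actn1 (0.983) and Twf1 (0.982), and those nearest to Kera were Engase (0.979), St5 (0.979) and Cald1 (0.975). Podn, with the different muscle order, was most like Leprotl1 (0.997), Dpt (0.990) and Nab2 (0.986).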

How the data were processed

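RNA of 6 whole TA muscles, 3 per group, was sequenced from polyadenylated libraries. The authors deposited raw, unscaled counts of reads for each gene. The submitters' processing notes name bcl2fastq 2.20.0.422 and the build GRCm38, and the aligner, counter and strand setting are not given in the sources used here. The 13226 genes included none with fewer than 60 counts in all, so a filter on low counts came before deposit. Within a group, chi-square per degree of freedom between libraries was 7.62 to 21.4, so no library repeated another. The biological coefficient of variation stood at 15.7%.

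After TMM scaling, the 13226 genes were tested in R 4.3.3 by the quasi-likelihood method of edgeR 4.0.16 (two-sided, a single term for group), and p-values were adjusted after Benjamini and Hochberg (threshold 0.05). Standard errors were derived from the log2 fold change and its F statistic. Log2 CPM used a prior count of 2. CPM per kb used the merged exons, or coding exons, of GENCODE M21, and promoters came from RefSeq (GRCm38.p6). The test was checked on simulated data. The members and gene lists were chosen with earlier results of these data known, and 1 marker list is not reported here. Named genes were Yap1, each SLRP, the highest and lowest log2 fold change of each list, and the genes most similar over the libraries. Other genes (Scx and Tnmd as defining markers, Col1a1, Tgfb1 and the genes past an unadjusted p of 0.05) were named after their values were seen. Alternatives were DESeq2 1.42.0, the likelihood ratio test, limma-voom (limma 3.58.1), other scalings, a filter of 10 counts in every library, a replicate block, a threshold of 0.01, leaving out each muscle and, added later, leaving out control 1 and Yap-shRNA 3 together.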

Additional observations from a re-analysis of the deposited data

How the results depend on the processing

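The count of SLRP members called, 0, did not change under any alternative run, nor at a threshold of 0.01. DESeq2 gave no p-value for Chad and so could not call it. Over the 10 members, 123 of 139 alternative values kept direction and call, with the DESeq2 value of Chad counted among them, and 16 reversed in sign. The genes called over the whole table, 0 by edgeR's quasi-likelihood test, were 5 by DESeq2 (Yap1 among them), 5 by the likelihood ratio test (Yap1 among them), 3 without control 1 and Yap-shRNA 3, an alternative added after seeing the data, and 0 to 1 when 1 muscle was left out (1 without Yap-shRNA 3). Yap1 passed the threshold at a log2 fold change of -1.10 in both DESeq2 and the likelihood ratio test, and ranged from -1.29 to -0.93 without 1 muscle.

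Leaving out 1 muscle turned the sign for many genes, with the lowest values mostly without Yap-shRNA 3 and the highest mostly without control 1. The log2 fold changes then ran from -3.72 to 2.51 for Chad, -1.91 to 1.48 for Fmod, -0.66 to 0.46 for Kera, -0.13 to 0.71 for Prelp, -0.26 to 0.31 for Aspn, -0.16 to 0.12 for Lum and -0.049 to 0.41 for Ogn. They kept their sign for Dcn (0.036 to 0.39), Bgn (0.0010 to 0.57) and Podn (0.13 to 0.31), and the median of the members ran from -0.14 to 0.43. Other genes that turned were Tsku (-0.39 to 0.20), Ecm2 (-0.15 to 0.017), Xylt1 (-0.13 to 0.24), B3galt6 (-0.37 to 0.25), Col12a1 (-1.21 to 1.72), Col3a1 (-0.23 to 0.39), Tlr2 (-0.39 to 0.12), Bmp1 (-0.13 to 0.097), Col15a1 (-0.047 to 0.14), Scx (-0.42 to 0.24), Angptl7 (-2.42 to 1.62), Runx2 (-0.15 to 0.68), Col9a1 (-0.50 to 0.22), Des (-0.038 to 0.098), Adgre1 (-0.28 to 0.66), Cldn5 (-0.019 to 0.35), Lep (-0.88 to 2.27), and Retn (-0.83 to 1.30). Without control 1 and Yap-shRNA 3 the sign turned for Lum (0.024), Xylt1 (-0.063), Scx (-0.25), Des (-0.047), Lep (-0.051) and Retn (-0.95). It also turned for Aspn under upper-quartile scaling (-0.00014) and for Scx with limma-voom (-0.049) and with the replicate block (-0.025). A filter of 10 counts in every library left 12210 genes and removed Chad, and the median of the other 9 members was 0.20. The cause of these changes was not tested. Of the members, Chad had the fewest counts in the 4 muscles other than control 1 and Yap-shRNA 3, at 8 to 29. Per kb of coding sequence in place of exons, the mean share of the summed level moved by more than the spread between muscles for 8 members, all but Fmod and Chad, for instance from 37.7 to 51.2% for Dcn and from 10.8 to 6.41% for Lum.

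The study's description pairs the muscles within animals, but no label names the animal of a muscle. Muscles of the same number did not deviate together (correlations -0.065, 0.20 and -0.32). With 3 muscles a group, these correlations cannot show which muscles shared an animal. The main fit does not take the numbers as pairs. Of the control muscles only control 2 correlated best with its own number, and the highest correlation was 0.38, between control 1 and Yap-shRNA 3. The replicate block called 0 genes and gave a median of 0.10 for the members and -1.13 for Yap1.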

Other observations

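The 6 adipocyte markers summed to 26.9, 14.5 and 20.9 CPM in control muscles and to 17.3, 17.4 and 95.3 CPM in Yap-shRNA muscles, so Yap-shRNA 3 was far above the others and control 1 came next. Of the 6, 4 were highest in control 1 and Yap-shRNA 3, against 11.3% of all genes. Their log2 fold changes were all above 0, from Retn at 0.82 to Lep at 1.44 with a median of 1.08, and both Retn and Lep fell below 0 when control 1 and Yap-shRNA 3 were left out. Adipoq, the adipocyte hormone adiponectin, was at 4.75, 2.01 and 2.87 CPM in control muscles and at 1.59, 3.15 and 16.3 CPM in Yap-shRNA muscles.

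The 10 macrophage markers summed to 236, 147 and 100 CPM in control muscles against 172, 206 and 222 CPM in Yap-shRNA muscles. All 10 had a log2 fold change above 0, from Adgre1 at 0.093 to Cd68 at 0.72, and with all muscles none reached an unadjusted p of 0.05. Without control 1 and Yap-shRNA 3, Adgre1 was at 0.63 and Cd68 at 1.32. Their unadjusted p in edgeR's quasi-likelihood test was then 0.10 and 0.0018, with adjusted p of 0.901 and 0.783. Control 1 and Yap-shRNA 3 had the highest sums, and 5 of the 10 markers were highest in these muscles. The 8 endothelial markers summed to 403 to 479 CPM in control and 424 to 461 CPM in Yap-shRNA muscles. Their log2 fold changes ran from Vwf at -0.21 to Cldn5 at 0.17. Of the 10 muscle fibre markers, log2 fold changes ran from Mylpf at -0.17 to Des at 0.018.

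In edgeR's quasi-likelihood test of all muscles, 2 of the 8 protease list genes with counts (Mmp3 and Mmp9) reached an unadjusted p of 0.05. So did 3 of the 10 fibroblast markers (Pi16, Dpt and Ly6a) and 0 genes of the other lists, each named gene with an adjusted p of 1.00. Over all 13226 genes 232 (1.75%) did so. Pi16 was at 28.6, 23.3 and 29.8 CPM in control muscles and at 38.1, 26.3 and 68.7 CPM in Yap-shRNA muscles. Ly6a was at 61.3, 63.0 and 52.4 CPM in control muscles and at 68.3, 67.7 and 76.8 CPM in Yap-shRNA muscles, and its groups did not overlap.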
